A study of Mus musculus with 2 samples.

Results

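The small leucine-rich proteoglycans decorin, biglycan, asporin, lumican, fibromodulin, PRELP and osteoglycin, together with the large proteoglycan versican, were followed in single mouse liver cells. Their genes (Dcn, Bgn, Aspn, Lum, Fmod, Prelp, Ogn and Vcan) were listed by name and matched by Ensembl identifier, and all 8 were among the 30406 genes present in both deposited matrices. The study asked how chronic injury by carbon tetrachloride (CCl4), a hepatotoxin that causes fibrosis, changes liver cells, and it sequenced 1 droplet library of cells from healthy mice and 1 from CCl4-injured mice. Mice of both groups were Col1a2CreER:Rosa26tdTomato animals, which carry a tamoxifen-inducible Cre driven by a collagen gene promoter and a red fluorescent reporter that Cre switches on. Mice were given as 8 to 10 weeks old, which for the injured group was the age when CCl4 began. That group received 10% CCl4 in corn oil at 2.5 µL per gram of body weight 2 times a week for 12 weeks. Age at collection was not stated for either group. The healthy group was described only as uninjured, and the number of mice behind each library and their tamoxifen state at collection were not given in the sources used here. Livers were digested with pronase and collagenase, cells were purified on a Nycodenz gradient, and CD45+ immune cells were depleted with magnetic beads, so the cell numbers below do not give the make-up of the liver. With 1 library in each group no test between groups was possible: every interval below is a 95% interval for counting error alone. Injury, library, software version and any difference in age cannot be told apart.

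Small leucine-rich proteoglycans are secreted proteins with a curved stack of leucine-rich repeats that binds collagen fibrils and sets their diameter and spacing, and several also hold growth factors such as TGF-β in the matrix. Versican is a far larger chondroitin sulfate proteoglycan that binds hyaluronan and forms a loose, hydrated matrix around migrating and proliferating cells. In the fibrotic liver such matrix is produced by hepatic stellate cells, the vitamin A-storing pericytes of the sinusoid, by fibroblasts of the portal tract, and by mesothelial cells, which cover the liver surface.

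Several of these genes lie side by side. In the RefSeq annotation of GRCm38.p6, Optc, Prelp and Fmod follow each other on chromosome 1, Dcn is followed by Lum, Kera and Epyc on chromosome 10, and Ecm2, Aspn, Omd and Ogn are adjacent on chromosome 13. Vcan lies elsewhere on chromosome 13 beside Hapln1, and Bgn is on the X chromosome. Promoter sequences from RefSeq were matched by symbol for 6 of the 8 genes, all but Dcn and Lum. The 250 bases before the annotated start are shown for 4 of them. Fmod and Ogn are shown because their levels across cell types were the most alike of any pair compared, Aspn because it neighbours Ogn but was found in other cells, and Bgn because it was also found in endothelial cells. Aspn was too low to enter the pairs compared. All 4 are on the plus strand and are written 5′ to 3′. Capitals mark matches on either strand to 3 motifs: the TATA box, with the letters TATAAA, the E-box, with the letters CANNTG, and the GC box, with the letters GGGCGG.
Fmod, chr1:134037004-134037253: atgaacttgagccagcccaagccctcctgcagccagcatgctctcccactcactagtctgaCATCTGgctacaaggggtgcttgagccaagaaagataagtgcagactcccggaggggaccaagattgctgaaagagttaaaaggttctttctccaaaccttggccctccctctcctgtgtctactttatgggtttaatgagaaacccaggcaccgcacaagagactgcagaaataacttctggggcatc
Ogn, chr13:49607765-49608014: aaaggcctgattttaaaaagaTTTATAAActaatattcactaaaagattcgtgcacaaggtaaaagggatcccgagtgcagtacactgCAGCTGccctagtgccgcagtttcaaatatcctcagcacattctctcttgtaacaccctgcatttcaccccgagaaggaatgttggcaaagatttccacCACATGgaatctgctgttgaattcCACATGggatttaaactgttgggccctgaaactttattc
Aspn, chr13:49544193-49544442: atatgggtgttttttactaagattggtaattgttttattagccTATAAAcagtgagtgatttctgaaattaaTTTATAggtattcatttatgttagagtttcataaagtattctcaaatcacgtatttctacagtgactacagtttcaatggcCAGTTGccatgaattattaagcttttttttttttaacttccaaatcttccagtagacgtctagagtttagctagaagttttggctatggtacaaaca
Bgn, chrX:73483351-73483600: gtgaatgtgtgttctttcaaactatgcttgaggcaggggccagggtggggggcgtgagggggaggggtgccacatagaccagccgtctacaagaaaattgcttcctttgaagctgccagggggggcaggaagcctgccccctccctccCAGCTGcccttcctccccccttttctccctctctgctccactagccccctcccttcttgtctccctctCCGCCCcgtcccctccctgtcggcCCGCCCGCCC
The Bgn sequence held 3 GC boxes, of which the last 2 overlap, and 1 E-box, and its GC content was 64.4%. The Ogn sequence held 3 E-boxes and 2 TATA-box matches that overlap on opposite strands, the Aspn sequence 2 TATA-box matches and 1 E-box, and the Fmod sequence 1 E-box. GC content was 51.2% for Fmod, 42% for Ogn and 30% for Aspn, against a median of 52.4% over 32851 mouse promoter sequences of the same length. Of those promoters 12.4% held a TATA-box match, 66.2% an E-box and 32.7% a GC box. A TGANTCA match (an AP-1 site), present in 6.75% of promoters, was in none of these 4. These are matches of letters and were not tested as binding sites.

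The healthy library held 6297 cell barcodes with 51122846 UMIs (unique molecular identifiers, each counting 1 captured RNA molecule), and the CCl4 library held 8460 barcodes with 97611831 UMIs. After filtering, 5602 healthy and 7314 CCl4 cells remained, with medians of 6783.5 and 11876 UMIs per cell, and 10 barcodes occurred in both libraries. Levels are given as counts (UMIs) per 1000000 UMIs of a population (CPM). Shares of cells with a UMI are the values computed for cells thinned to 2000 UMIs each, so that deeper cells do not score higher. Free RNA in the droplets was gauged from T and NK cell-like, neutrophil-like and B and plasma cell-like cells, which should not make these proteins: the 249 such cells of the CCl4 library (the background cells below) still held 456 CPM of Dcn, 165 of Bgn, 76.8 of Lum, 48.7 of Prelp, 17.6 of Ogn, 10.4 of Fmod, 3.11 of Vcan and 0 of Aspn. Single cells weighed heavily in these values: 1 neutrophil-like cell supplied 163 of their 440 Dcn UMIs, and 1 cell each supplied 9 of 10 Fmod and 13 of 17 Ogn UMIs. The healthy library had 6 such cells, so its levels were set against its 320 hepatocyte-like cells. These held 9.78 CPM of Bgn, 6.16 of Dcn and at most 1.81 of any other of the 8 genes. Where background was subtracted per droplet, the healthy library's own 6 immune-like cells were used. The 4 T and NK cell-like cells among those 6 held 10 Bgn UMIs.

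The populations that carried most of the signal were checked against marker genes before any comparison. The stellate-like cells (1689 in the CCl4 library) met all 20 stellate markers at 10 CPM or more, with 452 CPM of Lrat, the enzyme that stores retinol as esters, and 871 of Reln. They include a small cluster of 92 cells in which 14 of 15 endothelial markers were raised against the other mesenchymal and mesothelial cells only. Against all other cells, the next class of that cluster after stellate was smooth muscle, with 2 markers raised. Mesothelial-like cells met all 14 of their markers in both libraries, and the 886 CCl4 and 231 healthy cells lay almost wholly in separate clusters. No cluster met the portal-type fibroblast label. A cluster of 734 CCl4 cells led by Serpinb2, Fndc1 and Enpp2 was raised for 4 of 13 portal-type markers and also for 4 of 14 mesothelial markers. It held 227 CPM of Cd34 and 320 of Fbln2, but 0.068 of Gli1, 12.8 of Thy1 and 2.60 of Pi16, and its summed mesothelial markers came to 4856 CPM, against 93.0 in stellate-like cells and 16823 in mesothelial-like cells of the same library. A further 1304 CCl4 cells led by Thbs4, Dpep1 and Casq2 were raised for 8 of 20 stellate and 4 of 13 portal-type markers, with 912 CPM of Dpt and 443 of Mfap4. These populations are therefore called the Serpinb2 cluster and the Thbs4 cluster, and the contrast planned for portal-type fibroblasts was made with each. The portal-type markers did not set either apart from mesothelial-like cells. Summed, they came to 1506 CPM in the Serpinb2 cluster, 2303 in the Thbs4 cluster and 3154 in healthy mesothelial-like cells. Without the highest marker of each, the sums were 1042, 1391 and 1037 CPM. The main cluster of healthy mesothelial-like cells was raised for 7 of the 13 portal-type markers.

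Together the 8 genes made up 18464 CPM in stellate-like cells, 11244 in the Thbs4 cluster, 8884 in the Serpinb2 cluster and 5578 in mesothelial-like cells of the CCl4 library, 9916 in healthy mesothelial-like cells, and 778 in the background cells. Without thinning, the median cell had UMIs of 5 of the 8 genes in stellate-like, Thbs4 and both mesothelial-like populations. It had UMIs of 4 in the Serpinb2 cluster and of 1 among background cells. With cells thinned as for the shares, the expected number of genes per cell was 3.994 in stellate-like cells and 3.995 in the Thbs4 cluster. It was 3.85 in healthy and 2.61 in CCl4 mesothelial-like cells, 2.22 in the Serpinb2 cluster and 0.955 in background cells. Mesothelial-like cells of the CCl4 library were thus level with stellate-like cells only without thinning. The genes differed in where they were highest: Dcn, Bgn and Prelp were highest in stellate-like cells, Lum in the Thbs4 cluster, Fmod and Ogn in mesothelial-like cells, and Vcan in the Serpinb2 cluster. These orders compare populations of at least 20 cells outside the clusters of low UMI content.

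**Figure D1:**
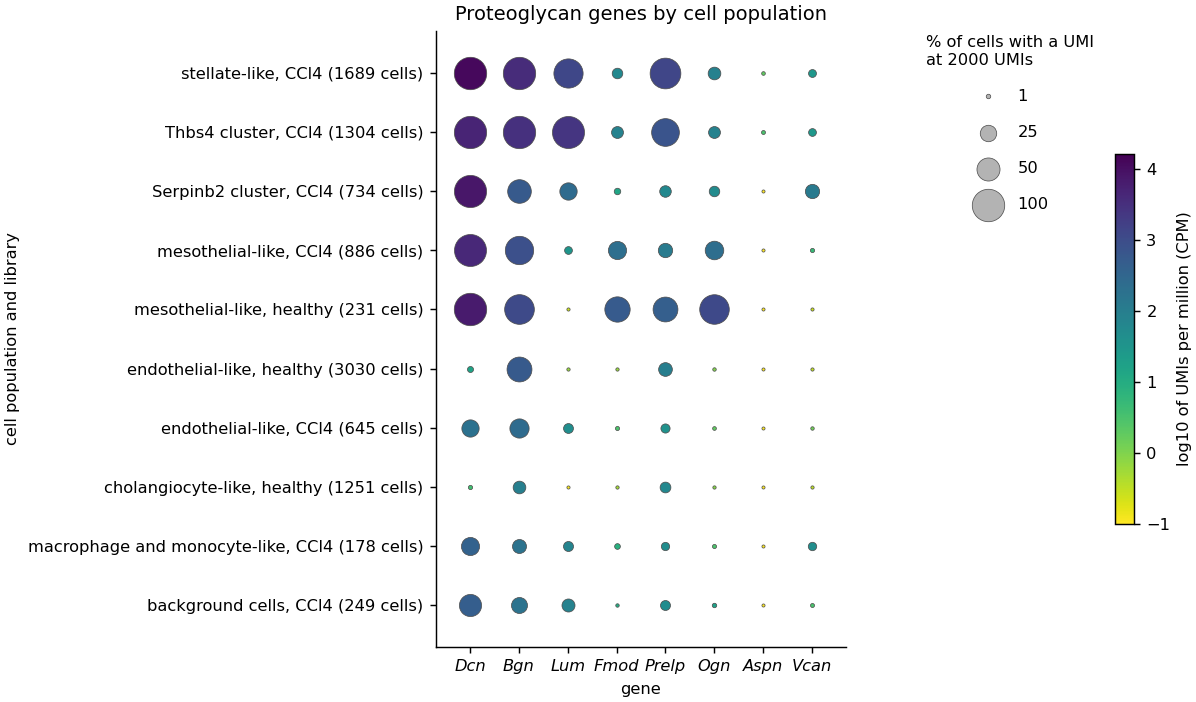
Level and detection of the 8 genes (columns) in 10 populations and libraries (rows). Colour is log10 of CPM, with levels of 0 in the lightest colour, and dot area follows the percentage of cells expected to hold a UMI at 2000 UMIs per cell. Lum is strong in stellate-like cells and the Thbs4 cluster, at 1266 and 2554 CPM, and faint in mesothelial-like cells, whereas Fmod and Ogn are strongest in healthy mesothelial-like cells, at 533 and 1108 CPM.

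Decorin (Dcn, ENSMUSG00000019929) binds collagen and sequesters TGF-β. In the CCl4 library it stood at 12086 CPM (12043 to 12129) in stellate-like cells, 7834 in the Serpinb2 cluster, 4758 in the Thbs4 cluster and 4144 in mesothelial-like cells. The median stellate-like cell held 174 Dcn UMIs (quartiles 123 and 229) and the median cell of the other 3 populations 151, 58 and 61, against 1 in background cells. Detection did not separate these populations, since 97.3% to 99.8% of cells in each were expected to hold a UMI at 2000 UMIs, against 46.0% of background cells. In the healthy library Dcn was found at 6751 CPM (6669 to 6834) in mesothelial-like cells, which were 4.12% of its cells and held 91.2% of its Dcn UMIs.

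Biglycan (Bgn, ENSMUSG00000031375) is the closest relative of decorin, and its soluble form can signal through Toll-like receptors. Bgn was at 3655 CPM (3631 to 3679) in stellate-like cells and 3037 (3012 to 3062) in the Thbs4 cluster, and it was expected in over 99% of cells of each at 2000 UMIs. Mesothelial-like cells held 855 CPM in the CCl4 and 1080 in the healthy library. The Serpinb2 cluster held only 550 CPM (538 to 562), with 52.6% of its cells expected to show a UMI against 23.7% of background cells. The Serpinb2 cluster was thus second for Dcn but seventh for Bgn among populations and libraries of at least 20 cells, where its Bgn interval overlapped that of healthy endothelial-like cells.

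Asporin (Aspn, ENSMUSG00000021388), a relative of decorin that carries a stretch of aspartates and binds collagen, was rare. The CCl4 library held 106 Aspn UMIs in all, 57 of them in the Thbs4 cluster (3.05 CPM, 2.31 to 3.96) and 46 in stellate-like cells (1.82 CPM, 1.33 to 2.43), and these intervals overlap. The Serpinb2 cluster had 0 Aspn UMIs, a level at least 8.88-fold lower than in stellate-like cells when 3 counts over the cluster are taken as its limit. All 51 Aspn UMIs of the healthy library were in 8 of the 14 healthy cells that clustered with stellate-like cells. At a coarser clustering resolution of 0.5, a smooth muscle-like population of 9 healthy and 10 CCl4 cells was separated. They held 3864 and 2506 CPM of the smooth muscle myosin Myh11. Pln, a further smooth muscle marker, was at 1293 CPM in the healthy cells but had 0 UMIs in the CCl4 cells. The population held those same 51 healthy Aspn UMIs at 701 CPM (522 to 922) and 16 CCl4 Aspn UMIs at 156 CPM (89.2 to 253). In these few cells Aspn was far above the levels of the Thbs4 cluster and stellate-like cells of the CCl4 library, whereas Dcn had 0 UMIs in the 9 healthy cells (a limit of 41.3 CPM) and 1862 CPM in the 10 CCl4 cells. Bgn was at 619 and 1277 CPM in them.

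Lumican (Lum, ENSMUSG00000036446) carries keratan sulfate and limits the width of collagen fibrils. It stood at 2554 CPM (2531 to 2577) in the Thbs4 cluster, 1266 (1252 to 1280) in stellate-like cells and 257 (249 to 266) in the Serpinb2 cluster. The Thbs4 cluster was 17.8% of CCl4 cells and held 53.3% of the library's Lum UMIs. Mesothelial-like cells of the CCl4 library were at 30.3 CPM, below the 76.8 of background cells, and their expected share of cells with a UMI was 4.87% against 15.3%. Counted per cell they held more, 0.538 against 0.297 Lum UMIs, and 44.8% of their Lum UMIs were left when the mean of the background cells was subtracted from each droplet. The healthy mesothelial-like cells had 1 Lum UMI in 231 cells.

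Fibromodulin (Fmod, ENSMUSG00000041559) competes with lumican for the same region of collagen, and its order across populations was another. It was highest in healthy mesothelial-like cells, at 533 CPM (510 to 556), followed by mesothelial-like cells of the CCl4 library at 207 (200 to 214). The Thbs4 cluster and stellate-like cells held 82.5 and 60.5 CPM, and the Serpinb2 cluster held 13.6, an interval (11.8 to 15.6) that overlaps the background cells, with 85.2% of its 199 Fmod UMIs left after that subtraction. The expected share of cells with a UMI fell in the same order, at 60.6%, 30.8%, 12.7%, 9.75% and 3.11%, against 0.226% of background cells.

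PRELP (Prelp, ENSMUSG00000041577) binds collagen and the basement membrane proteoglycan perlecan. It was at 1279 CPM (1265 to 1293) in stellate-like cells, 700 (688 to 712) in the Thbs4 cluster, 444 (423 to 466) in healthy and 114 (109 to 120) in CCl4 mesothelial-like cells. The Serpinb2 cluster was at 59.0 CPM, and its expected share of cells with a UMI, 11.9%, lay within the interval of the background cells (8.63%, 5.25 to 13.2), while 84.0% of its 864 Prelp UMIs were left after subtraction of the background cells' mean from each droplet. Stellate-like cells were 23.1% of CCl4 cells and held 62.5% of the library's Prelp UMIs.

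Osteoglycin (Ogn, ENSMUSG00000021390) belongs to a further class of the family and also binds collagen fibrils. The healthy mesothelial-like cells held 1108 CPM (1075 to 1142), with a median of 19 UMIs per cell, and 98.3% of all healthy Ogn UMIs. Mesothelial-like cells of the CCl4 library held 223 CPM (216 to 231), with a median of 3 UMIs. Stellate-like cells and the Thbs4 cluster followed at 87.6 and 82.5 CPM with overlapping intervals, then the Serpinb2 cluster at 51.7. Its near neighbour Aspn had 1 UMI in the mesothelial-like cells of both libraries together.

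Versican (Vcan, ENSMUSG00000021614) was highest in a population where most of the other genes were low. Its highest level was 118 CPM (113 to 124) in the Serpinb2 cluster, followed by 72.3 (63.2 to 82.2) in a cluster of 155 CCl4 cells led by the cell division gene Esco2 and 44.4 (32.4 to 59.3) in the 178 macrophage and monocyte-like CCl4 cells. Stellate-like cells and the Thbs4 cluster held 28.5 and 26.7 CPM, with overlapping intervals. The Serpinb2 cluster was 10.0% of CCl4 cells and held 50.9% of the library's Vcan UMIs, and 18.6% of its cells were expected to show one at 2000 UMIs against 5.04% of stellate-like and 0.606% of background cells. Mesothelial-like CCl4 cells were at 4.90 CPM and 0.784% of cells, where the interval of the level overlapped that of background cells, and 86.1% of their 77 Vcan UMIs were left after the same subtraction per droplet.

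Set against stellate-like cells of the same library, the Serpinb2 cluster had lower levels of most of the family and more versican. Prelp was 21.7-fold lower (20.2 to 23.2), Bgn 6.65-fold (6.50 to 6.80), Lum 4.92-fold (4.76 to 5.09) and Fmod 4.45-fold (3.83 to 5.18), while Vcan was 4.15-fold higher (3.8 to 4.53). Dcn, at 0.648 times the stellate-like level, and Ogn, at 0.590 times, were within 2-fold. With Aspn, 5 of the 8 genes were at least 2-fold lower and 1 was at least 2-fold higher, where 17.7% and 13.9% of the 13369 genes with at least 20 UMIs in the pair passed the same folds. The median log2 ratio was -2.23 over the 8 genes and -0.08 over all genes compared. Leaving out the 92 stellate-like cells with endothelial markers left the count at 6.

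Against the same stellate-like cells the Thbs4 cluster differed far less. Lum was 2.02-fold higher (1.99 to 2.05), so its interval includes the fold used, and Dcn was 2.54-fold lower (2.52 to 2.56). The ratios of the other genes were 0.831 for Bgn, 0.548 for Prelp, 1.36 for Fmod and 1.68 (1.12 to 2.53) for Aspn. For Ogn (0.941, 0.882 to 1.005) and Vcan (0.937, 0.834 to 1.05) the interval of the ratio included equality. Of the 8 genes 1 was thus at least 2-fold higher, where 8.57% of 13273 genes were, and 1 at least 2-fold lower, where 5.85% were, and the median log2 ratio was -0.09 over the 8 genes and 0.07 over all.

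Mesothelial-like cells differed from stellate-like cells in all 8 genes. Fmod was 3.42-fold higher (3.22 to 3.64) and Ogn 2.55-fold higher (2.42 to 2.69). Lum was 41.7-fold lower (38.1 to 45.7), Prelp 11.2-fold, Vcan 5.82-fold, Bgn 4.28-fold and Dcn 2.92-fold lower, and Aspn had 1 UMI against 46 (ratio 0.035, 0.00087 to 0.205). These counts of 2 higher and 6 lower compare with 16.5% and 15.8% of 13561 genes, and the median log2 ratio was -2.32 over the 8 genes and 0.08 over all. In CPM, the Lum level of mesothelial-like cells was below that of the background cells and the interval of Vcan overlapped theirs.

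Set against the Serpinb2 cluster, mesothelial-like cells of the CCl4 library held 15.2-fold more Fmod (13.2 to 17.7) and 4.32-fold more Ogn (3.99 to 4.68), and 24.2-fold less Vcan (19.2 to 30.8) and 8.48-fold less Lum (7.71 to 9.35). Prelp was at 1.94, Bgn at 1.55 and Dcn at 0.529 times the level of the Serpinb2 cluster. Aspn, with 1 UMI in both together, was not compared. Of the 7 genes compared 2 were at least 2-fold higher and 2 at least 2-fold lower, where 14.3% and 9.07% of 13027 genes were, and the median log2 ratio was 0.64 over these genes and 0.17 over all.

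**Figure D2:**
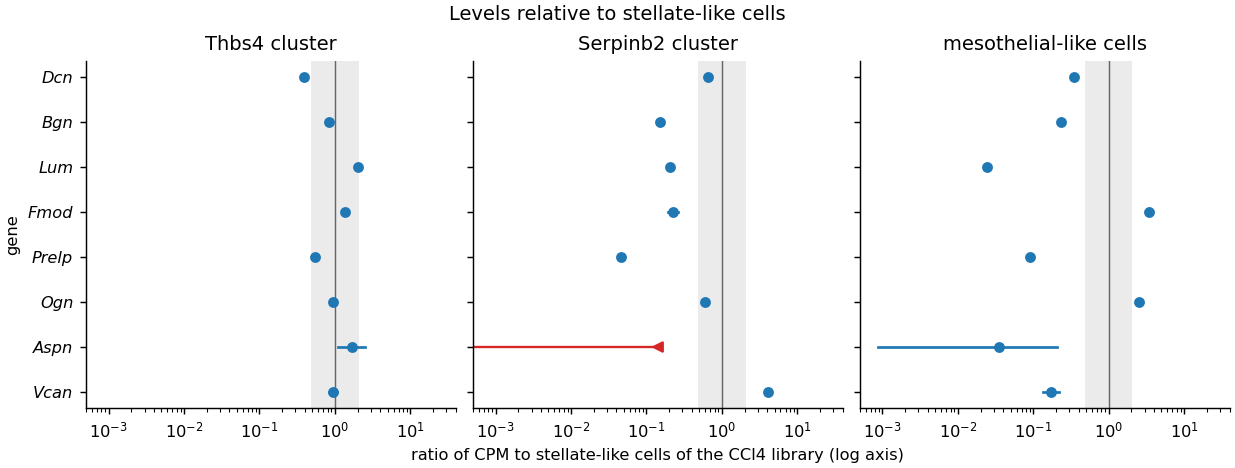
Ratio of CPM of each gene (rows) to stellate-like cells of the CCl4 library, on a log axis, for the Thbs4 cluster, the Serpinb2 cluster and mesothelial-like cells of that library. Dots are ratios, lines are 95% intervals for counting error, the band marks less than 2-fold, and the arrow marks the upper bound for Aspn, which had 0 UMIs in the Serpinb2 cluster. In the Thbs4 cluster Dcn lies to the left of the band, at 0.394, Lum at its right edge, at 2.02, and the other genes within it. Vcan is 4.15-fold higher in the Serpinb2 cluster, and Fmod and Ogn are the 2 genes to the right of the band in mesothelial-like cells.

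Mesothelial-like cells were the mesenchymal population with enough cells in both libraries. The 5 genes above background in both were lower in the CCl4 library: Ogn 4.96-fold (4.74 to 5.19), Prelp 3.88-fold (3.63 to 4.15), Fmod 2.57-fold (2.43 to 2.72) and Dcn 1.63-fold (1.61 to 1.65), and Bgn was 1.26-fold lower (1.22 to 1.31). Prelp was the nearest of the 5 to background in the CCl4 library, at 114 CPM against 48.7 in background cells. The expected share of cells with a UMI was also lower, at 32.2% against 82.8% for Ogn and 18.8% against 58.3% for Prelp. Lum (477 against 1 UMI, ratio 117, 20.8 to 4612) and Vcan (77 against 1 UMI, ratio 18.8, 3.28 to 753) were higher in the CCl4 library, but the CCl4 level of Lum was below that of the background cells and the interval of Vcan overlapped theirs. Of the 7 genes compared 3 were at least 2-fold lower and 2 at least 2-fold higher, where 12.6% and 13.1% of 12442 genes were, and the median log2 ratio was -0.70 over these genes and -0.02 over all. The summed mesothelial markers were also lower, at 16823 CPM in the CCl4 and 28623 in the healthy cells, and their part in the difference was not tested.

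**Figure D3:**
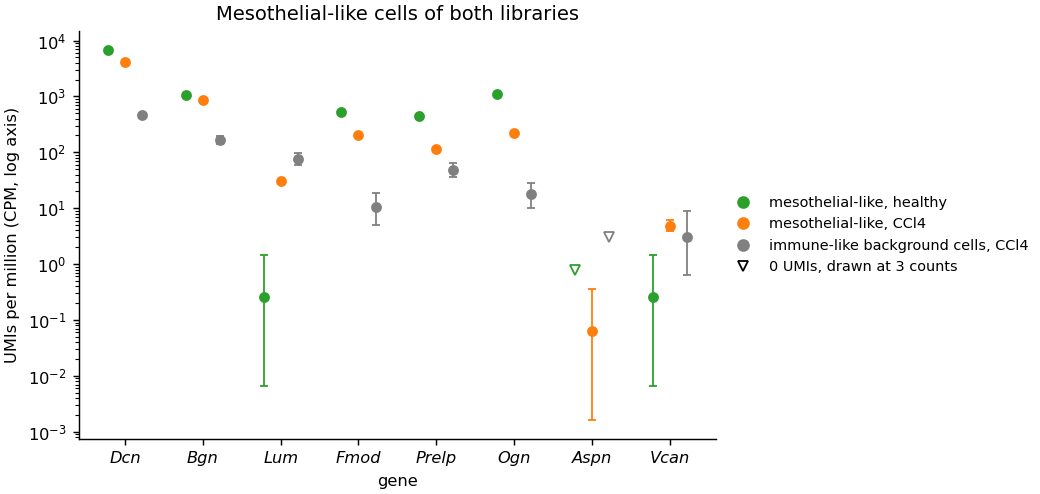
CPM (log axis) of each gene in mesothelial-like cells of the healthy library (231 cells) and the CCl4 library (886 cells) and in the 249 immune-like background cells of the CCl4 library, with 95% Poisson intervals. Open triangles mark 0 UMIs, drawn at 3 counts. Ogn, Prelp and Fmod are lower in the CCl4 than in the healthy cells, and Lum of the CCl4 cells, at 30.3 CPM, lies below the background cells at 76.8.

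Few stellate-like cells were captured from healthy liver, so no ratio between libraries is given for them. Of the 14 healthy cells 9 were the smooth muscle-like cells above, and the other 5 joined a sub-cluster led by Angptl6, with 28236 CPM of Dcn, 4849 of Bgn, 2255 of Prelp and 1896 of Lum. The 302 CCl4 cells of that sub-cluster held 16815, 3677, 1660 and 951 CPM of the same genes. The 6 healthy cells of the Thbs4 cluster held 19159 CPM of Dcn and 2980 of Bgn.

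Most stellate-like and Thbs4 cells of the CCl4 library fell into 7 sub-clusters of 243 to 604 cells, placed in order of Acta2, the smooth muscle actin that marks activated stellate cells and is not among the 8 genes. Acta2 was counted over all cells of a sub-cluster, those of the healthy library included. It ran from 247 CPM in the sub-cluster led by Inmt to 3395 in that led by Actg2. The 252 cells of the latter include the 9 healthy smooth muscle-like cells, which held 13339 CPM of Acta2. A further sub-cluster, led by Adgrl4 and made up of 92 stellate-like cells, was left out of this order. In it 14 endothelial markers were raised against the other mesenchymal and mesothelial sub-clusters. It held 2979 CPM of Bgn (2904 to 3055), 582 of Lum and 8.47 of Fmod, each below the lowest value among the 7, although its Bgn and Fmod intervals overlap those of the lowest. Bgn ranged from 3023 to 3862 CPM across the 7. Dcn and Lum varied most among the abundant genes: Dcn from 3827 CPM in the sub-cluster led by Rgs16 to 16815 in that led by Angptl6, and Lum from 951 in the latter to 3071 in that led by Angpt2. Within the 3 sub-clusters drawn mainly from the Thbs4 cluster (led by Angpt2, Rgs16 and Plcxd3) Lum was 2336 CPM or more and Prelp 945 or less, and in the other 4 Lum was 1618 or less and Prelp 1034 or more.

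In the Actg2 sub-cluster, with the highest Acta2, 4 smooth muscle and 2 stellate markers were raised against the other mesenchymal and mesothelial sub-clusters. Myh11 was among its leading genes, so its Acta2 is not a measure of stellate activation alone. The Actg2 sub-cluster did not stand at either end for the abundant genes. It held 7375 CPM of Dcn, 3048 of Bgn, 1302 of Lum and 1034 of Prelp. Its Vcan, 38.3 CPM (32.3 to 45.2), was the highest of the 7, but the interval overlaps those of the Inmt sub-cluster, at 33.3, and the Angpt2 sub-cluster, at 30.7. The Angptl6 sub-cluster, which had 15 stellate markers raised against the other mesenchymal and mesothelial sub-clusters, was the lowest of the 7 for Fmod at 10.5 CPM and for Vcan at 11.3.

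**Figure D4:**
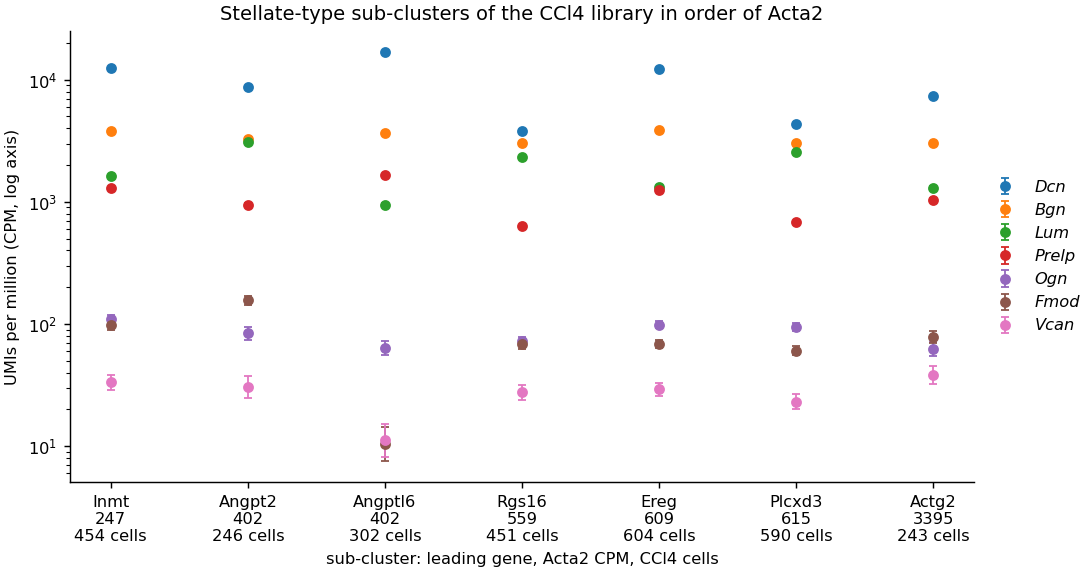
CPM (log axis) of 7 of the genes in 7 sub-clusters of stellate-like and Thbs4 cells of the CCl4 library, with 95% Poisson intervals. Sub-clusters are ordered from left to right by Acta2, counted over their cells of both libraries. The Adgrl4 sub-cluster of 92 cells is not drawn. Bgn stays between 3023 and 3862 CPM, while Dcn ranges from 3827 to 16815 and Fmod from 10.5 to 156.

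Outside the mesenchymal and mesothelial cells, Bgn and Prelp were also found in the lining of vessels and ducts. The 3030 healthy endothelial-like cells held 554 CPM of Bgn (544 to 565), expected in 58.5% of cells at 2000 UMIs against 2.03% of hepatocyte-like cells, and they supplied 62.1% of the healthy library's Bgn UMIs. Dcn was at 14.9 CPM in the same cells. Within them Bgn ranged from 376 CPM in the cluster led by Rasd1, which also has the sinusoidal gene Clec4g among its leading genes, through 602 in that led by Plppr5 and 852 in that led by Gja5, a gap junction gene of arteries, to 1801 (1698 to 1909) in 86 cells led by Tnni3 and Vwf, the gene of von Willebrand factor. Prelp followed another order, with 351 CPM in the Tnni3 cluster, 154 in the Plppr5 cluster, 75.7 in the Rasd1 cluster and 29.6 in the Gja5 cluster. The 1251 healthy cholangiocyte-like cells, which line the bile ducts, held 95.7 CPM of Bgn and 58.0 of Prelp, against 9.78 and 1.81 in hepatocyte-like cells.

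In the CCl4 library the endothelial-like cells came mostly from another cluster, of 617 cells led by Nts, with 236 CPM of Bgn (222 to 252), and 27 cells of the Gja5 cluster held 526 (423 to 645). The background cells of that library held 165 CPM. The 645 CCl4 endothelial-like cells had 1084 Bgn and 808 Dcn UMIs, whereas the background cells had 159 and 440, so the ratio of the 2 genes differed from that of the background cells. As given above, a single neutrophil-like cell supplied a large part of those 440 Dcn UMIs. Prelp was at 37.3 CPM in the CCl4 endothelial-like cells and 48.7 in background cells, or 0.253 and 0.189 UMIs per cell.

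**Figure D5:**
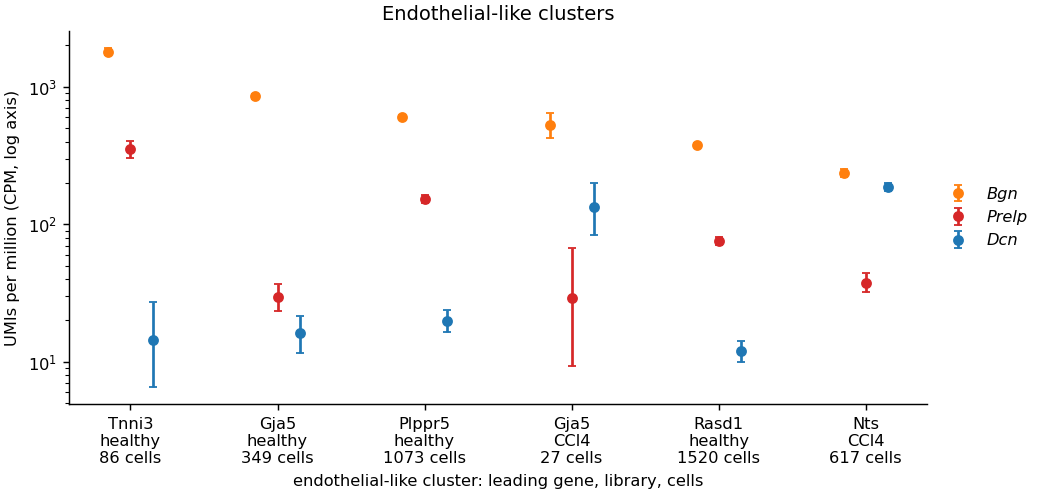
CPM (log axis) of Bgn, Prelp and Dcn in endothelial-like clusters of at least 20 cells, each named by its leading gene and library, in order of Bgn, with 95% Poisson intervals. Bgn falls from 1801 CPM in the Tnni3 cluster to 236 in the Nts cluster, and in the healthy clusters Dcn stays between 11.9 and 19.9 CPM.

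The genes with the most similar profiles were found over 26 points, each a cluster in 1 library with at least 20 cells, by Pearson correlation of log2(CPM + 10) among 8362 genes. The points share their library's depth and free RNA, so the values are descriptions. Dcn was most like the collagen genes Col6a1 (r = 0.97), Col6a2 (0.96) and Col3a1 (0.95). Lum was most like Dpt (0.97), which encodes the collagen-binding dermatopontin, Cxcl12 (0.96) and Postn (0.95), and Bgn most like Ecm1 (0.94), Mxra8 (0.92) and Pam (0.91). Fmod and Ogn were each other's near matches (0.93), and both were matched by Podn, a further small leucine-rich protein (0.93 and 0.94), with Vgll3 (0.92) next for Fmod and Fzd2 (0.91) for Ogn. Prelp was most like Bgn, Mxra7 and Foxf1 (0.89 for each). Vcan had the weakest matches, Dclk1 (0.81), Ifi202b (0.79) and Dram1 (0.79), and Aspn was below the level needed.

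Other genes of proteoglycan biology were counted in 5 lists, with the percentages of all genes given above as the background. Of 10 further small leucine-rich genes 5 could be compared, and in the Serpinb2 cluster 0 were at least 2-fold higher than in stellate-like cells and 4 at least 2-fold lower (Omd, Ecm2, Podn and Optc). Podn was at 47.6 CPM in stellate-like cells, 10.6 in the Serpinb2 cluster, 166 in CCl4 and 269 in healthy mesothelial-like cells. Among hyaluronan genes, the partners of versican, 4 of 5 compared were at least 2-fold higher in the Serpinb2 cluster: Cd44, the hyaluronan receptor, Tnfaip6, a hyaluronan-modifying protein, and the synthases Has1 and Has2. Cd44 was at 235 CPM there and 37.8 in stellate-like cells, but also at 247 in background cells, which are leukocyte-like. Tnfaip6 was at 51.4 CPM in the Serpinb2 cluster, 34.9 in the Thbs4 cluster, 13.1 in stellate-like cells and 1.14 in mesothelial-like CCl4 cells. In mesothelial-like cells 2 of 5 hyaluronan genes were at least 2-fold higher than in stellate-like cells and 3 lower.

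Of 26 genes for the synthesis of chondroitin, dermatan and keratan sulfate, the sugar chains of these proteins, 22 could be compared between the Serpinb2 cluster and stellate-like cells, with 3 at least 2-fold higher and 8 lower, and 23 between mesothelial-like and stellate-like cells, with 3 higher and 9 lower. Chst15, which adds a sulfate to chondroitin, was at 201 CPM in stellate-like cells, 193 in the Thbs4 cluster, 26.9 in the Serpinb2 cluster and 2.99 in mesothelial-like cells. The last 2 were below the 30.1 CPM of background cells, and background was not subtracted per droplet for Chst15. Dse, the epimerase that turns chondroitin into dermatan sulfate, was at 104, 68.5, 36.8 and 20.6 CPM in the same order, and Chpf, a chondroitin polymerizing factor, at 58.4, 44.9, 42.1 and 29.3.

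Among heparan sulfate and other core proteins, 4 of 16 were at least 2-fold higher and 6 lower in the Serpinb2 cluster than in stellate-like cells, and 5 of 16 higher and 9 lower in mesothelial-like cells. Of those 4, Sdc4 was above the 96.5 CPM of background cells. Gpc3, Prg4 and Spock2, at 19.1, 57.3 and 5.05 CPM in the Serpinb2 cluster, were below the 41.5, 75.7 and 10.4 CPM of background cells. The Serpinb2 cluster had a median of 19901.5 UMIs per cell, and the 3 clusters of background cells had medians of 4144, 3014.5 and 2304. CPM therefore does not compare free RNA per droplet, and background was not subtracted per droplet for these 3 genes. The cell surface syndecan Sdc4 was at 294 CPM in stellate-like cells, 1297 in the Serpinb2 cluster and 1146 in mesothelial-like CCl4 cells. Gpc3, a glypican, and Spock2 were mesothelial, at 749 and 268 CPM in the CCl4 and 942 and 436 in the healthy library, against 19.1 and 5.05 in the Serpinb2 cluster. Prg4, the lubricant proteoglycan of joint and serosal surfaces, was at 605 CPM in CCl4 and 12.8 in healthy mesothelial-like cells, the opposite direction to Ogn, Prelp and Fmod in those cells.

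The ADAMTS proteases that cleave versican and its relatives were the last list. Of 6 compared, 2 were at least 2-fold higher and 2 lower in the Serpinb2 cluster than in stellate-like cells, and 1 higher and 2 lower in mesothelial-like cells. Adamts5 was at 623 CPM in stellate-like cells, 1202 in the Thbs4 cluster and 184 in the Serpinb2 cluster, and Adamts4 at 51.8, 86.0 and 12.3. Between libraries, 4 of 5 were at least 2-fold higher in mesothelial-like cells of the CCl4 library and 0 lower. Adamts1 was at 243 against 33.1 CPM, Adamts5 at 245 against 109, Adamts9 at 109 against 3.12, and Adamts4 at 3.31 CPM against 0 UMIs. In the background cells of the CCl4 library these genes were at 29.0, 62.2, 29.0 and 2.07 CPM.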

How the data were processed

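Members and lists were chosen with earlier results of these data known, and the cell naming rule, the choice of populations and the sub-clustering were set after the data were seen. The deposited values are raw UMI counts, 1 matrix per library, made by the authors with Cell Ranger (3.1.0 for healthy and 6.0.1 for CCl4 cells, per the file headers). The submitters' processing notes name a mouse and a human build with no role. The study's methods name the human build GRCh38 for the single-cell reads, whereas the matrices hold mouse Ensembl identifiers, so the build behind the counts is unclear.

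Genes were matched by Ensembl identifier. Cells with at least 500 UMIs, 200 genes and at most 30% mitochondrial UMIs were kept, and the highest Scrublet scores were removed at 0.8% per 1000 cells. Both libraries were clustered together (2000 variable genes without the 8 genes and the other core proteins, 30 principal components, 20 neighbours, Leiden resolution 1, seed 1) in scanpy 1.11.5 (Python 3.11.15). Clusters were named from at least 3 markers raised 2-fold and held by at least 10% of cells. A cluster stayed unnamed where 2 classes tied, where its 10 leading genes went against the name, or where its median UMI count was under 1 part in 3 of its library's with no marker leading. Intervals were exact Poisson for levels, conditional binomial for ratios and Clopper-Pearson for shares (scipy 1.17.1), and a count of 0 was given a limit of 3 counts. The contrast planned for portal-type fibroblasts used the Serpinb2 cluster, since no cluster met that label. Named genes were the 8 members, the 3 genes most like each, and up to 4 genes per list with at least 50 CPM in a compared population. The pipeline was tested on simulated data. TMM factors came from edgeR 4.0.16 (R 4.3.3). No p-value was computed.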

Additional observations from a re-analysis of the deposited data

How the results depend on the processing

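Each count of genes at least 2-fold apart was recomputed with other numbers of principal components, clustering resolutions, mitochondrial limits, doublet handling, cell weights, scalings, background subtraction, fold and count filter. Counts moved by less than 1.5 times except as follows. At 4-fold, 5 in place of 8 genes separated mesothelial-like from stellate-like cells, and 3 in place of 5 separated the libraries in mesothelial-like cells, through the stricter fold itself. With the Thbs4 cluster in place of the Serpinb2 cluster, a choice made after seeing the data, 2 in place of 6 genes differed from stellate-like cells and 7 in place of 4 from mesothelial-like cells, and the ratio to stellate-like cells turned direction for Lum (2.02), Aspn (1.68), Fmod (1.36) and Vcan (0.937). Of 361 recomputed ratios of single genes 4 turned, which are those, and 28 moved by over 1.5 times. Without doublet removal the ratio of Lum between libraries in mesothelial-like cells was 454 in place of 117, and with background subtracted 37.5, since it rests on 1 healthy UMI. The healthy background in that subtraction came from only 6 immune-like cells. Dcn, Bgn and Prelp were highest in stellate-like cells under all 9 alternatives tried for levels. No paired analysis was possible because each group has 1 library. Lum and Vcan in mesothelial-like cells and Prelp in the Serpinb2 cluster depend on how free RNA is set off, since their CPM lay near or below that of background cells while subtraction per droplet left 44.8%, 86.1% and 84.0% of their UMIs.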

Other observations

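Vcan of the healthy library lay mostly outside the named populations. A cluster of 541 healthy cells with few UMIs, led by Sox2, Sp8 and Ccl21a and left unnamed for its low UMI content, held 73 Vcan UMIs (54.1 CPM, 42.4 to 68.1), which were 84.9% of that library's Vcan UMIs. They came from 16 cells, with up to 17 UMIs in 1 cell, and 14 of 15 endothelial markers were raised in the cluster. In the CCl4 library the 45 Vcan UMIs of macrophage and monocyte-like cells came from 6.18% of 178 cells, with up to 10 in 1 cell, and after thinning to 2000 UMIs a UMI was expected in 5.85% of them (2.35 to 11.8), against 0.606% (0.0325 to 2.78) of background cells.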
